A study of Mus musculus with 6 samples.

Results

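Major histocompatibility complex (MHC) class II molecules carry peptides to the cell surface for CD4+ T cells, and 7 genes of this system are described here, of 32285 features in the count tables. The genes were taken by symbol, namely Cd74, H2-Aa, H2-Ab1, H2-Eb1, H2-DMa, H2-DMb1 and Ciita. They were chosen because an earlier look at these libraries had shown higher levels in the epithelial cells of one label, so the epithelial levels under the 2 labels are given as a description with no test.

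The study isolated cells from the small intestine of 3 control littermates and 3 IE-HuR-/- mice and made 1 droplet library per mouse, counting RNA molecules by their unique molecular identifiers (UMIs). IE-HuR-/- mice carry floxed alleles of Elavl1, the gene of the RNA-binding protein HuR, together with a Cre recombinase under the villin promoter, which is active in intestinal epithelium. The control littermates carry the same floxed alleles (HuR fl/fl) without Cre, although their label reads wild-type. All mice were of C57BL/6 background, aged between 6 and 8 weeks by the study's methods. The labels give normal feeding, whereas the methods say that food, but not water, was withheld for a day before experiments, and which of these holds for the mice of these libraries is not given in the sources used here.

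An MHC class II molecule is a pair of an alpha and a beta chain, which in these mice are encoded by H2-Aa and H2-Ab1. H2-Eb1 encodes the beta chain of a second molecule, whose alpha chain gene H2-Ea is defective in the C57BL/6 strain. Cd74 encodes the invariant chain, which escorts new class II molecules to the endosome and blocks their groove. H2-DMa and H2-DMb1 form H2-DM, which exchanges the remnant of the invariant chain for peptides, and H2-Oa and H2-Ob form H2-DO, its inhibitor in B cells. Ciita encodes the transactivator that switches the whole set on. It binds no DNA itself but docks on a complex of RFX, CREB and NF-Y proteins at the X and Y boxes of class II promoters, and interferon-gamma induces it in cells that do not express it by default. Intestinal epithelial cells are known to carry class II molecules, and more of them in an inflamed gut.

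The promoters are shown for the X and Y boxes, the elements bound by the complex that Ciita docks on. In the RefSeq promoter table (GRCm38.p6), 4 of the 7 genes had a window, namely H2-Aa, H2-Eb1, H2-DMa and H2-DMb1. The 250 bases before each start were searched on both strands for the core of the X box (ACNGATG), the Y box (GATTGG) and the gamma-activated site (TTCNNNGAA). Of 32851 windows, 8.31% held the X core, 14.6% the Y box, 1.18% both and 7.02% the gamma-activated site. The bases from 130 to 29 before the start are shown for 3 members and for H2-DMb2, a paralog of H2-DMb1, with the X core and the Y box in capitals.
H2-DMb1 (chr17:34153061-34153162, plus strand): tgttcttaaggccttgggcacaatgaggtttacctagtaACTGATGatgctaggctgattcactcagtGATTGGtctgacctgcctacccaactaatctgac
H2-DMb2 (chr17:34145119-34145220, plus strand): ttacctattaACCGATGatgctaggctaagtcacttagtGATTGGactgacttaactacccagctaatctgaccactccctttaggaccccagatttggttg
H2-Eb1 (chr17:34305737-34305838, plus strand): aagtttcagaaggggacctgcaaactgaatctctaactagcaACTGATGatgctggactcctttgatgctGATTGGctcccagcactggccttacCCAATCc
H2-Aa (chr17:34287852-34287953, minus strand): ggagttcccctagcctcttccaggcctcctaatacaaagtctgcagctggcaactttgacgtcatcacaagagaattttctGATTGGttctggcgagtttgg

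The X core began 91 bases before the start of H2-DMb1 and 88 bases before that of H2-Eb1, and the Y box followed at 62 and 60 bases. H2-DMb2 held the same pair farther out, at 120 and 91 bases, and was the gene of these 4 with a match to the gamma-activated site, at 218 bases. The Y box of H2-Aa lay at 49 bases, while its match to the letters of the X core lay at 232 bases, outside the stretch shown, and on the other strand. That match is not shown to be the X box of H2-Aa, and an X box that departs from the searched letters would be missed. H2-Eb1 had an additional Y box on the other strand at 35 bases. H2-DMa, which has 2 annotated starts, had no match at the first and a Y box at 199 bases before the second. Each match is a description of the sequence.

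The libraries held 60706 barcodes and 428980031 UMIs, between 59518012 and 91818560 UMIs per library. Cells with at least 200 genes (60431) were sorted into classes by UMIs of marker genes, none of which is a class II gene, and a level is given in CPM, counts scaled to a fixed total, that is, the share of a gene in all UMIs of 1 class and library. The epithelial classes held 29463 cells, of which 17411 were enterocytes, 1062 goblet cells, 241 enteroendocrine cells, 200 tuft cells, 189 stem or cycling progenitors and 20 Paneth cells, the rest having no finer class. Although the labels name an epithelial tissue, the libraries also held 6694 T cells, 1217 erythroid cells, 240 macrophages or dendritic cells (macrophage/DC), 221 B cells, 82 fibroblasts, 79 plasmacytoid dendritic cells and 46 plasma cells, while 995 cells had markers of several lineages and 21374 had too few marker UMIs. Between 22 and 44 barcode sequences were shared by each pair of libraries. In epithelial cells, Elavl1 stood at 29.3, 31.6 and 29.5 CPM in the control libraries and 30.8, 30.6 and 31.7 CPM in those labelled IE-HuR-/- (log2 fold change 0.19, SE 0.0472, edgeR adjusted p = 0.00396, and 1.03-fold by CPM). It was not called by edgeR without TMM scaling, edgeR's scaling of library sizes (log2 fold change 0.04, adjusted p = 0.468), in a stricter gate (log2 fold change 0.21, adjusted p = 0.135) or in cells without a UMI of a non-epithelial marker (log2 fold change 0.20, adjusted p = 0.136). Because Elavl1 RNA was not lower there, the libraries are called by their labels throughout. By immunostaining, the paper reports that HuR protein was nearly absent from gut epithelium under the IE-HuR-/- genotype. The counts used here are of RNA and give no protein level. They therefore do not show whether HuR protein was lost in the mice of these libraries.

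In enterocytes, the absorptive cells of the villus, every one of the 7 genes was higher in each library labelled IE-HuR-/- than in any control library. The summed level of the 7 genes was 722, 784 and 769 CPM in the control libraries and 4462, 4526 and 4431 CPM in those labelled IE-HuR-/-, listed here and below as replicates 1, 2 and 3. That is 758 ± 32.1 CPM under the control label against 4473 ± 48.5 CPM under the label IE-HuR-/- (SD, n = 3 each), a ratio of 5.90, with 116261 and 543208 UMIs behind it. The libraries of 1 label lay close together, and the groups were far apart. The genes were chosen on this contrast, in which 30.5% of 12283 genes tested were called higher and 31.0% lower, and nothing is read from the separation of the groups.

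Cd74, the invariant chain, had the most UMIs of the 7 genes. Its enterocyte level was 322, 357 and 349.8 CPM in the control libraries and 2055, 2034 and 1993 CPM in those labelled IE-HuR-/-, a ratio of 5.91. In goblet cells, which secrete the mucus, it was 234, 238 and 311 CPM in the control libraries and 980.4, 1240.2 and 1005 CPM in those labelled IE-HuR-/-. Tuft cells, the chemosensory cells of the epithelium, had 307, 225 and 294 CPM in the control libraries and 1072, 980.1 and 1457 CPM in those labelled IE-HuR-/-. The lowest goblet and tuft values of the libraries labelled IE-HuR-/- were more than 3 times the highest control values. Hormone-producing enteroendocrine cells had 58.1, 192 and 136 CPM in the control libraries and 337, 858 and 1146 CPM in those labelled IE-HuR-/-, with the replicates of both labels spread widely. Progenitors stood at 329, 144 and 369 CPM in the control libraries and 874, 779 and 1199.6 CPM in those labelled IE-HuR-/-. No epithelial class with at least 10 cells per library had overlapping Cd74 values, whereas the 20 Paneth cells, with 57 Cd74 UMIs in all, had overlapping ones.

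Of the classical chains, H2-Aa had the higher ratio between the labels. H2-Aa, the alpha chain, was at 110.4, 116 and 109 CPM in the control libraries and 893, 936 and 902 CPM in those labelled IE-HuR-/- in enterocytes, a ratio of 8.13. H2-Ab1, its beta chain partner, was at 201, 213 and 218 CPM in the control libraries and 992, 1010.5 and 986 CPM in those labelled IE-HuR-/-, a ratio of 4.73. The 2 chains of 1 molecule thus differed in their ratio. H2-Aa relative to H2-Ab1 was 0.548, 0.545 and 0.501 in the control libraries and 0.90, 0.926 and 0.915 in those labelled IE-HuR-/-. In goblet cells the same quotient was 0.418, 0.424 and 0.497 in the control libraries and 0.980, 0.901 and 0.851 in those labelled IE-HuR-/-, so it was higher under the label IE-HuR-/- in 3 of 3 libraries of either class. Macrophage/DC cells, in which the quotient lay between 0.874 and 1.22 over the 6 libraries, did not separate the labels. The quotient compares 1 gene pair across cells and does not give the ratio of molecules, since gene length and capture differ between the genes.

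H2-Eb1, the beta chain without an alpha partner in this strain, was at 60.5, 67.3 and 63.3 CPM in the control libraries and 355, 373 and 372 CPM in those labelled IE-HuR-/- in enterocytes, a ratio of 5.76. Its quotient over H2-Ab1 was lower in enterocytes than in the immune classes. In enterocytes the quotient was between 0.291 and 0.315 in the control libraries and between 0.358 and 0.377 in the others. In B cells it was between 0.981 and 1.26 in the control libraries and between 0.904 and 0.985 in the others, and in macrophage/DC cells between 0.782 and 1.11 in the control libraries and between 0.813 and 0.943 in the others. The enterocyte values lay below those of both immune classes in 6 of 6 libraries. H2-Eb2, a further beta chain, had 13 UMIs in all enterocytes and 0 in goblet cells, while in B cells it was between 108 and 181 CPM in the control libraries and between 96.1 and 166 CPM in the others. H2-Eb1 and H2-Eb2 transcripts share 0 of the 1991 windows of 50 bases in H2-Eb1, and H2-Ea was not among the features analysed here.

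The chains of H2-DM, the peptide exchanger, differed in their ratios. H2-DMa was at 11.1, 11.2 and 11.4 CPM in the control libraries and 47.4, 50.3 and 51.5 CPM in those labelled IE-HuR-/- in enterocytes, the lowest ratio of the 7 genes (4.44). H2-DMb1 was at 13, 14.9 and 14.7 CPM in the control libraries and 103, 103 and 107 CPM in those labelled IE-HuR-/-, a ratio of 7.33. As with the classical pair, the 2 partners differed, and H2-DMb1 over H2-DMa was 1.18, 1.33 and 1.30 in the control libraries and 2.16, 2.06 and 2.07 in those labelled IE-HuR-/-. In B cells the same quotient was between 0.128 and 0.310 in the control libraries and between 0.209 and 0.385 in the others, below the enterocyte value in 6 of 6 libraries. Macrophage/DC cells had 0.475, 0.532 and 0.391 in the control libraries and 0.597, 0.623 and 0.754 in those labelled IE-HuR-/-. Plasmacytoid dendritic cells had between 0.333 and 0.355 in the control libraries and between 0.40 and 0.615 in the others. The labels overlapped in B cells but not in macrophage/DC or plasmacytoid dendritic cells, so a higher quotient was not particular to the epithelium.

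H2-DMb1 held nearly all counts of the DM beta genes in epithelial cells, and H2-DMb2 held most of them in B cells. The mouse has 2 DM beta genes, H2-DMb1 and H2-DMb2, whose promoters are shown above. In enterocytes, 14841 UMIs were counted for H2-DMb1 and 24 for H2-DMb2, so that H2-DMb1 made up 99.8% of the pair (99.4% to 99.9% over libraries). Goblet, tuft and enteroendocrine cells had 737, 190 and 135 UMIs of H2-DMb1 and 0 of H2-DMb2. In macrophage/DC cells H2-DMb1 made up 78.1% (371 and 104 UMIs), and in B cells 19.7% (56 and 228 UMIs, between 14.5% and 29.0% over libraries). The B cell share lay below the enterocyte share in 6 of 6 libraries. The B cell level of H2-DMb2 was between 223 and 301 CPM in the control libraries and between 256 and 339 CPM in the others. Of the 1629 windows of 50 bases in H2-DMb1 transcripts, 22.7% are also found in H2-DMb2, so the counts of the pair are uncertain for reads in the shared stretches.

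H2-DO, which restrains H2-DM, was near 0 in the epithelium. H2-Oa had 13 UMIs and H2-Ob 10 UMIs in all 17411 enterocytes, and neither had a UMI in goblet cells. In B cells H2-Oa was between 151 and 254 CPM in the control libraries and between 126 and 186 CPM in the others. H2-Ob was between 312 and 350.1 CPM in the control libraries and between 267 and 341 CPM in the others there. In macrophage/DC cells H2-Oa was between 52.4 and 108 CPM in the control libraries and between 43.0 and 191 CPM in the others. H2-Oa and H2-Ob in enterocytes were at most 0.0534% and 0.0301% of the B cell level of the same library.

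Ciita, the transactivator, had the fewest UMIs of the 7 genes. Its enterocyte level was 3.46, 3.59 and 2.73 CPM in the control libraries and 17.5, 19.5 and 19.8 CPM in those labelled IE-HuR-/-, a ratio of 5.81 with 507 and 2306 UMIs behind it. Goblet cells had 0.590, 0.588 and 1.69 CPM in the control libraries and 13.2, 12.0 and 10.8 CPM in those labelled IE-HuR-/-, of which the control values rest on 13 UMIs. Control progenitors had 6 and control tuft and enteroendocrine cells 4 UMIs each, so the ratios in those classes are imprecise. In enterocytes and in goblet cells Ciita was above its control range in all 3 libraries labelled IE-HuR-/-.

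**Figure D1:**
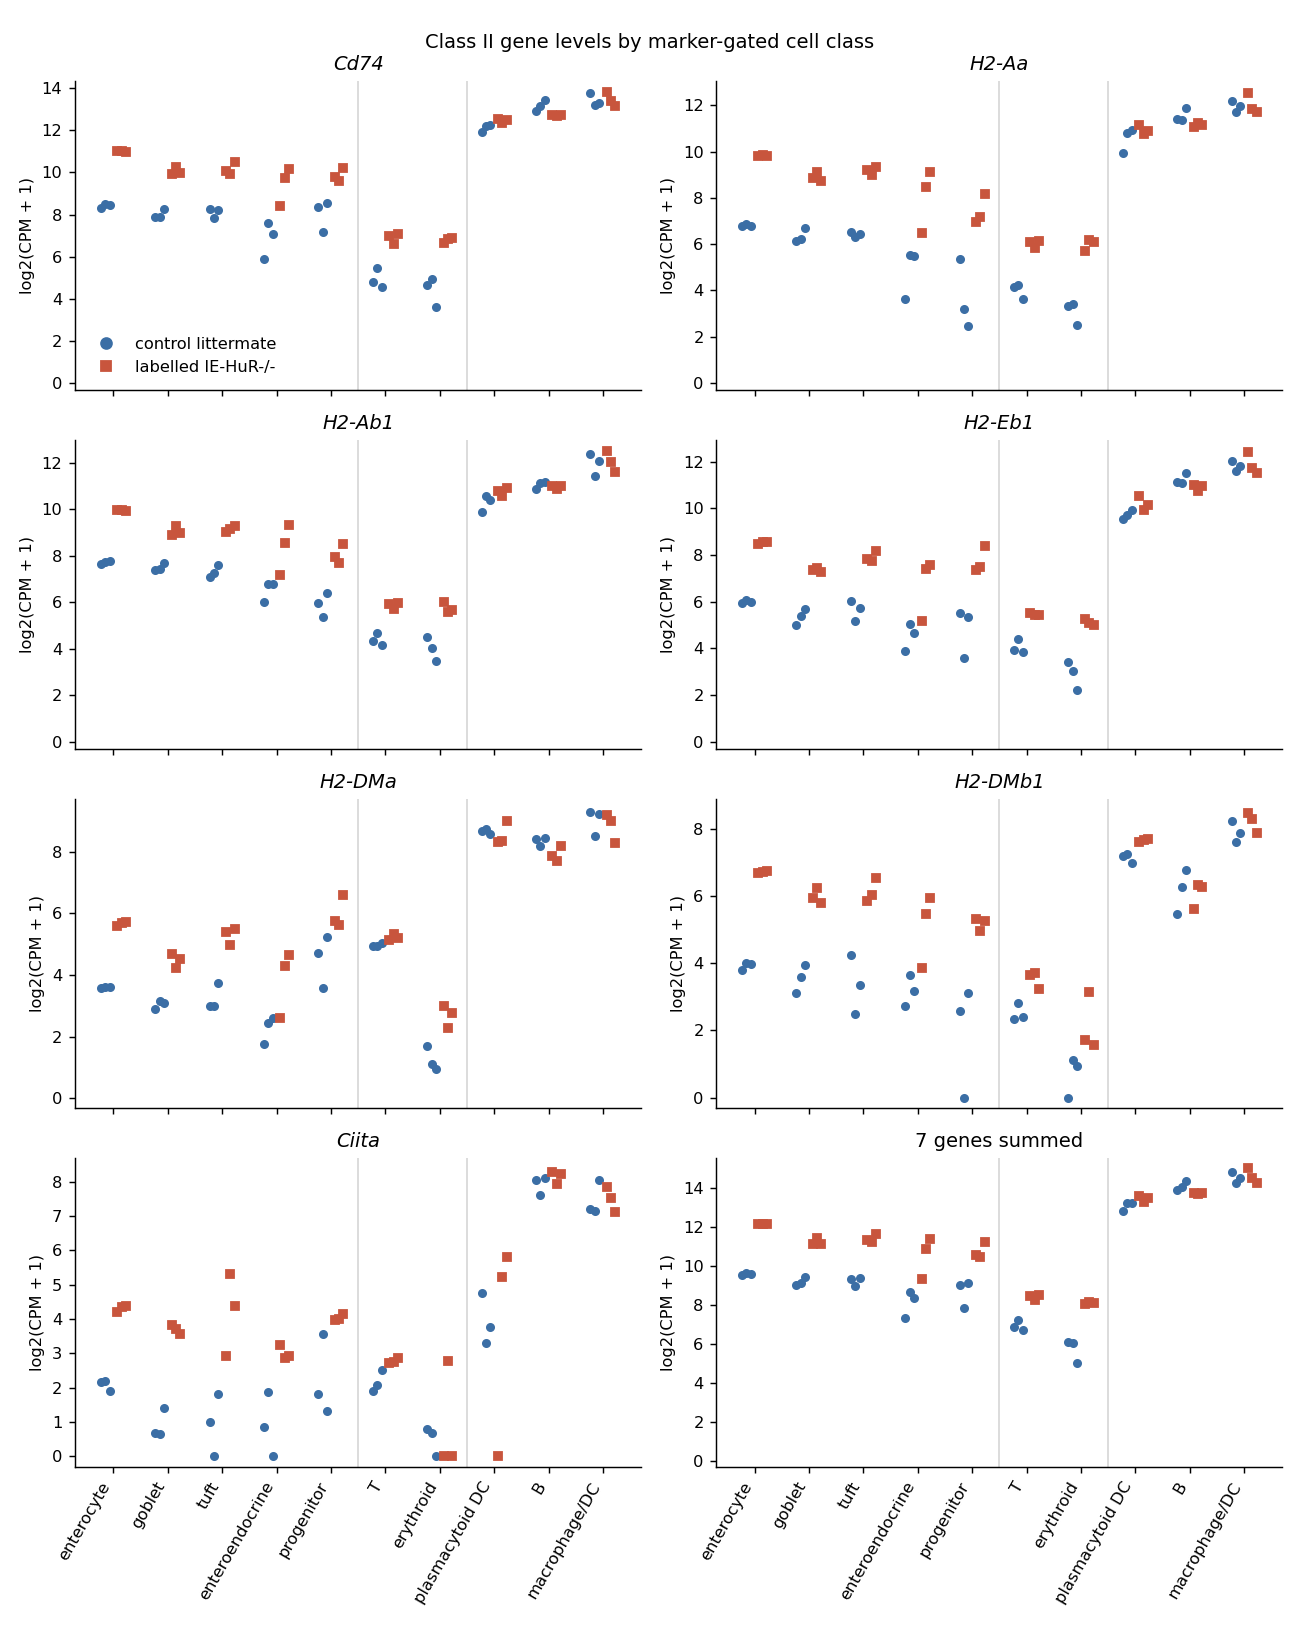
Level of each of the 7 genes and of their sum in 10 marker-gated cell classes, on a log2(CPM + 1) axis, with 1 point per library (circles, control littermates; squares, libraries labelled IE-HuR-/-) and grey lines that part epithelial, T and erythroid, and antigen-presenting classes. In enterocytes Cd74 lies between 322 and 357 CPM in the control libraries and between 1993 and 2055 CPM in the others, whereas the macrophage/DC points of the labels overlap.

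Across the other epithelial classes the summed level kept the same direction. It was 518, 543 and 695 CPM in the control libraries and 2193, 2705 and 2177 CPM in those labelled IE-HuR-/- in goblet cells (ratio 4.03), and the lowest value labelled IE-HuR-/- was above the highest control value. Tuft cells had between 499.9 and 651 CPM in the control libraries and between 2391 and 3173 CPM in the others (ratio 4.55). Enteroendocrine cells had 157, 397 and 327 CPM in the control libraries and 629, 1823 and 2622 CPM in those labelled IE-HuR-/- (ratio 5.76). There the groups came closest, with replicate 1 lowest under either label, and H2-DMa overlapped. Progenitors had 509.7, 226 and 542 CPM in the control libraries and 1513, 1398 and 2328 CPM in those labelled IE-HuR-/- (ratio 4.10). Enterocytes held between 65.2% and 68.6% of all UMIs of the 7 genes in the control libraries and between 76.8% and 80.3% in the others. The immune classes together held between 10.2 and 20% in the control libraries and between 4.48 and 6.35% in the others. Of these UMIs, cells with markers of several lineages, which can be doublets, held between 3.46 and 7.22% in the control libraries and between 5.53 and 7.28% in the others. Cells with too few marker UMIs for a class had Cd74 between 104 and 138 CPM in the control libraries and between 594 and 636 CPM in the others.

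**Figure D2:**
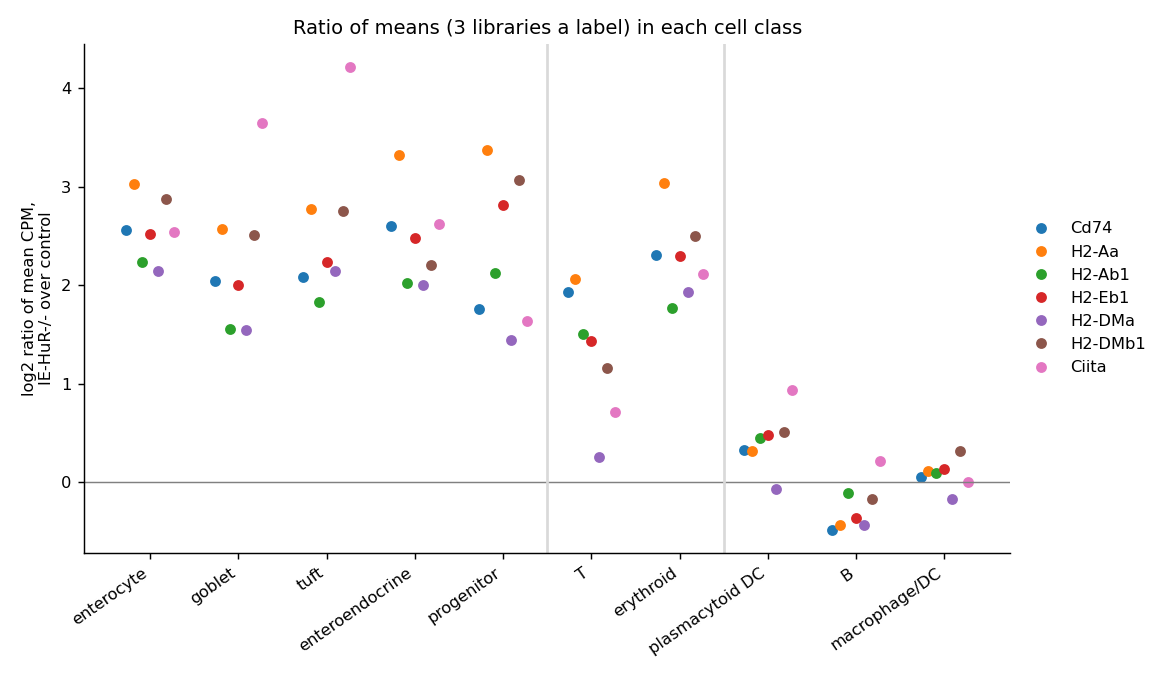
Log2 ratio of the mean CPM of the 3 libraries labelled IE-HuR-/- over that of the 3 control libraries, for each of the 7 genes (colours) in 10 cell classes. All epithelial points lie above 1, T cells range down to H2-DMa near 0, and the points of plasmacytoid DC, B and macrophage/DC lie between -0.48 and 0.94, while Ciita in tuft and goblet cells rests on few control UMIs.

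In control enterocytes a small part of the cells held most class II UMIs, and in those labelled IE-HuR-/- nearly every cell had some. Over the cells with at least 5000 UMIs, the median number of UMIs of the 7 genes per 10000 UMIs was 1.59, 1.91 and 1.51 in the control libraries and 36.8, 36.6 and 34.8 in those labelled IE-HuR-/-. The 10th percentile was 0 in the 3 control libraries and between 6.66 and 8.04 in those labelled IE-HuR-/-. The 90th percentile was between 19.3 and 21.4 in the control libraries and between 73.7 and 74.0 in the others. Enterocytes without any UMI of the 7 genes made up 25.5, 22.9 and 25.6% in the control libraries and 0.237, 0.524 and 0.234% in those labelled IE-HuR-/-. The share of these UMIs held by the top 10% of enterocytes was between 58.7 and 61.2% in the control libraries and between 22.2 and 23.2% in the others. Among enterocytes without a UMI of any immune, erythroid or stromal marker, the top 10% still held between 57.0 and 66.5% in the control libraries and between 26.6 and 32.0% in the others. The share of enterocytes above 20.6 UMIs per 10000, the 90th percentile of all control enterocytes, was between 9.33 and 10.6% in the control libraries and between 68.4 and 73.2% in the others. No background was taken off these values. Erythroid cells, which should lack these genes, had Cd74 at 3.19 to 8.49% of the enterocyte level in the control libraries. In those labelled IE-HuR-/- they had it at 4.83 to 5.83%. The part of such background in the shares of enterocytes with or without a UMI was not tested.

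The median rose with the depth of the cell. In the libraries labelled IE-HuR-/-, enterocytes between 5000 and 10000 UMIs had medians of 15.3, 10.8 and 12.4 per 10000, and those in the deepest of 3 depth bins had 49.9, 50.8 and 48.8. In the control libraries the medians were between 0 and 1.4 in the shallower and between 2.40 and 2.81 in the deeper cells. The labels were separated at every depth, which describes the contrast on which the genes were chosen. Cells rich in Cd74 were rich in the other 6 genes as well. In the 10% of control enterocytes with the highest Cd74 share, the other 6 genes summed to 1922, 2068 and 2098 CPM, against 215, 234 and 213 CPM in the other 90%. In the libraries labelled IE-HuR-/- the same values were between 4483 and 4601 CPM and between 2219.7 and 2332 CPM. Ciita in these top cells was between 7.30 and 9.50 CPM in the control libraries and between 26.4 and 35.8 CPM in the others, and in the other cells between 2.18 and 2.93 CPM in the control libraries and between 16.5 and 18.5 CPM in the others. The share of cells with a UMI of a non-epithelial marker was between 77.4% and 87.3% in the top cells and between 75.5% and 87.0% in the others over the 6 libraries.

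**Figure D3:**
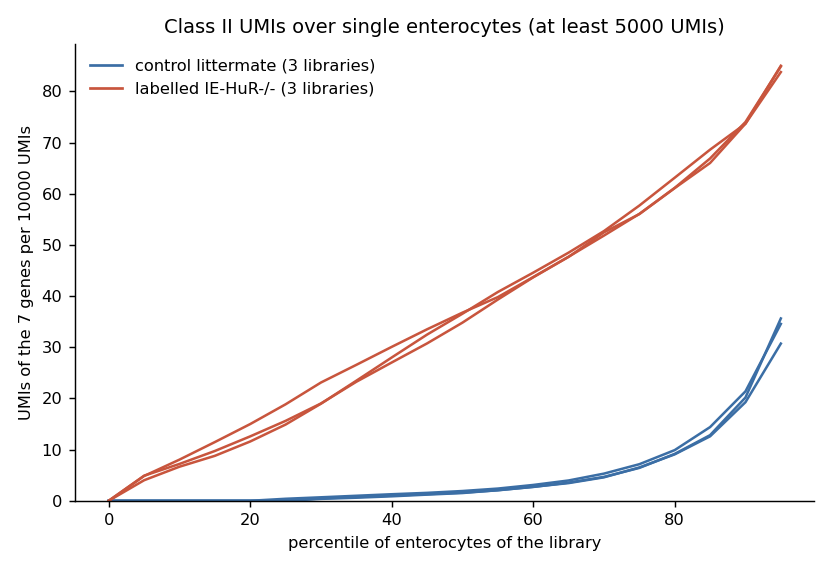
UMIs of the 7 genes per 10000 UMIs at every 5 percentiles of the enterocytes of a library (cells with at least 5000 UMIs), 1 line per library. The 3 control lines stay at or near 0 for most cells and reach about 20 at the 90th percentile, whereas the 3 lines labelled IE-HuR-/- rise from the lowest percentiles and pass 34 at the median.

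Position along the villus was read from the share of UMIs of tip genes such as Ada and Apoa4, by which the enterocytes of each library were split into 3 equal groups. In the control libraries the summed level fell from 1064, 1257 and 1052 CPM in the group with the lowest tip share to 601, 603 and 662 CPM in the group with the highest, and it was lower in 3 of 3 libraries. In the libraries labelled IE-HuR-/- it was 4959, 4905 and 4789.9 CPM in the lowest, 4925, 5146 and 4975 CPM in the middle and 4061, 4139 and 4047 CPM in the highest group. The genes differed along this axis. Ciita went from 6.18, 7.65 and 4.92 CPM to 1.21, 0.749 and 1.04 CPM in the control libraries and from 34.4, 36.6 and 38.7 CPM to 3.46, 4.35 and 4.96 CPM in those labelled IE-HuR-/-. H2-DMa went from 70.2, 71.8 and 75.0 CPM to 24.4, 23.9 and 31.1 CPM in the latter. H2-Ab1, in contrast, was 992, 1003 and 973 CPM in the lowest and 999, 1004 and 969.6 CPM in the highest group there. Median UMIs per cell were lower in the lowest group, between 9476 and 14087 against between 17428 and 26256 in the highest over the 6 libraries, and their part in these differences was not tested.

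Detection was compared after thinning every cell to 1000 UMIs, since deeper cells show more genes. The share of thinned enterocytes with a Cd74 UMI was 15, 16.6 and 15.7% in the control libraries and 65.2, 61.2 and 62.5% in those labelled IE-HuR-/-. The share with a UMI of any of the 7 genes was 26.0, 28.1 and 26.2% in the control libraries and 82.5, 79.3 and 81.5% in those labelled IE-HuR-/-. Without thinning, at median depths of 9918 UMIs (control) and 8873 UMIs (labelled IE-HuR-/-), this share was between 63.5 and 65.8% in the control libraries and between 96.3 and 97.9% in the others. The shares of the 2 labels differed at either depth, on the contrast by which the genes were chosen. In thinned goblet cells the share with any of the 7 genes was between 21.4 and 21.5% in the control libraries and between 47.8 and 49.7% in the others. Tuft cells had between 17.6 and 22.1% in the control libraries and between 42.7 and 50.4% in the others, and progenitors between 14.7 and 24.9% in the control libraries and between 46.7 and 56.3% in the others. For Ciita alone, the share of thinned enterocytes was between 0.244 and 0.333% in the control libraries and between 1.49 and 1.69% in the others. Erythroid cells should lack these genes and serve as background. Their gate required a share of epithelial marker UMIs under 0.005, which can lower the background they show. The share of them with a UMI of any of the 7 genes was 8.85, 7.93 and 4.57% in the control libraries and 26.3, 27.6 and 26.1% in those labelled IE-HuR-/-, at median depths of 4077.5 and 4304 UMIs before thinning. The goblet and enterocyte shares lay above the erythroid share of the same library in 6 of 6 libraries.

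In the professional antigen-presenting cells the levels were high under both labels. Macrophage/DC cells, whose gate rests on genes such as Csf1r, C1qa and Flt3, had Cd74 at 13791, 9234 and 9939 CPM in the control libraries and 14461, 10724 and 9005 CPM in those labelled IE-HuR-/-. H2-Aa was between 3354 and 4635 CPM in the control libraries and between 3371 and 6005 CPM in the others. H2-Ab1 was between 2742 and 5292 CPM in the control libraries and between 3104 and 5941 CPM in the others. The values of the labels overlapped for all 7 genes. None of the 7 genes was called by edgeR in these cells (0 of 7, where 0.211% of 3318 genes tested were called in either direction). The unadjusted p was under 0.05 for 0 of them, and DESeq2 also called 0. The log2 fold changes ranged from -0.10 (SE 0.286, H2-DMa) to 0.37 (SE 0.258, H2-DMb1). The gate held between 27 and 56 cells per library, with a median depth of 5228 UMIs in the control libraries and 1617 UMIs in the others. Plasmacytoid dendritic cells, with 6 cells in 1 library, were not tested, and their Cd74 was at 3894, 4753 and 4798 CPM in the control libraries and 5939, 5210.0 and 5696 CPM in those labelled IE-HuR-/-.

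B cells, of which 102 and 119 were gated, had lower levels of some class II genes in the libraries labelled IE-HuR-/-. Cd74 was at 7603, 9067 and 10889.6 CPM in the control libraries and 6654, 6434 and 6649.6 CPM in those labelled IE-HuR-/- (log2 fold change -0.64, SE 0.139, edgeR adjusted p = 7.22e-05). H2-Aa was at 2733, 2667 and 3779 CPM in the control libraries and 2113, 2425 and 2248 CPM in those labelled IE-HuR-/- (log2 fold change -0.59, SE 0.154, edgeR adjusted p = 0.00137). H2-Eb1 was at 2208, 2194 and 2946 CPM in the control libraries and 2044, 1709 and 1962 CPM in those labelled IE-HuR-/- (log2 fold change -0.52, SE 0.159, edgeR adjusted p = 0.00828). These 3 of 7 genes were called lower and 0 higher by edgeR and by DESeq2, with 4 and 0 at an unadjusted p under 0.05, where 10.7% of the 1872 genes tested were called lower and 10.0% higher. H2-Ab1, which was between 1885 and 2342 CPM in the control libraries and between 1890.0 and 2076 CPM in the others, had overlapping groups (log2 fold change -0.27, SE 0.161, edgeR adjusted p = 0.246). H2-DMa (log2 fold change -0.59, SE 0.255, adjusted p = 0.0871), H2-DMb1 (log2 fold change -0.26, SE 0.484, adjusted p = 0.771) and Ciita (log2 fold change 0.05, SE 0.262, adjusted p = 0.92) were not called either. Only Cd74 stayed called without TMM scaling, which moves the median log2 fold change of all genes in B cells by 0.21 and raises the share of higher calls from 48.3% to 70.3%. Only Cd74 stayed called, also, without the filter on low counts, without control replicate 3 or without replicate 3 labelled IE-HuR-/-, and 0 of the 5 tested in a stricter gate. In that gate the log2 fold change of Cd74 was -0.02 (edgeR adjusted p = 0.982). It was -0.26 for H2-Aa (adjusted p = 0.825) and -0.07 for H2-Eb1 (adjusted p = 0.972). Of the 389 genes tested there, 1 was called higher and 0 lower.

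In T cells, 5 of the 7 genes were called higher under the label IE-HuR-/- and 0 lower by edgeR and by DESeq2 (7 and 0 at an unadjusted p under 0.05), where 3.00% of 11467 genes tested were called higher and 2.87% lower. RNA of enterocyte markers was also found in these cells, as given below, and the genes were chosen on the epithelial contrast. These calls are therefore not read as a result apart from that contrast. Cd74 was at 26.7, 43.8 and 22.6 CPM in the control libraries and 125, 97.8 and 133 CPM in those labelled IE-HuR-/- (log2 fold change 1.88, SE 0.294, edgeR adjusted p = 0.0417). H2-Aa was at 16.6, 17.9 and 11.3 CPM in the control libraries and 67.1, 56.0 and 68.6 CPM in those labelled IE-HuR-/- (log2 fold change 2.01, SE 0.140, edgeR adjusted p = 5.41e-07). The other called genes were H2-Ab1 (log2 fold change 1.45, SE 0.131, adjusted p = 4.98e-06), H2-Eb1 (log2 fold change 1.39, SE 0.136, adjusted p = 3.06e-06) and H2-DMb1 (log2 fold change 1.11, SE 0.231, adjusted p = 0.00588). For H2-DMa (log2 fold change 0.23, SE 0.102, adjusted p = 0.231) and Ciita (log2 fold change 0.72, SE 0.268, adjusted p = 0.132) the adjusted p was above 0.05. The call of Cd74 was lost without control replicate 1 (adjusted p = 0.174) and without any 1 of the libraries labelled IE-HuR-/- (adjusted p = 0.154, 0.0911 and 0.131 without replicates 1, 2 and 3), as well as without the filter on low counts (adjusted p = 0.0568). That of H2-DMb1 was lost without control replicate 1 (adjusted p = 0.0681) or without replicate 2 labelled IE-HuR-/- (adjusted p = 0.0603). The log2 fold change of Cd74 was between 1.76 and 2.00 in the fits without 1 library.

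The T cell levels were set beside RNA of enterocytes found in the same cells. T and erythroid cells were gated with a share of epithelial marker UMIs under 0.005, which can lower the percentages given below. As a percentage of the enterocyte level of the same library, Cd74 in T cells was 8.28, 12.3 and 6.46% in the control libraries and 6.07, 4.81 and 6.68% in those labelled IE-HuR-/-. The 12 enterocyte markers, such as Fabp1 and Sis, stood in T cells, on the same measure, at 10.2, 12.6 and 5.95% in the control libraries and 6.96, 6.01 and 6.74% in those labelled IE-HuR-/-. Cd74 and the enterocyte markers thus stood at similar percentages, and their part in the T cell calls was not tested. In erythroid cells the same measure was between 3.19 and 8.49% in the control libraries and between 4.83 and 5.83% in the others for Cd74. For the markers it was between 5.58 and 11.5% in the control libraries and between 6.4 and 7.95% in the others. Erythroid Cd74 was at 24.7, 30.3 and 11.1 CPM in the control libraries and 99.2, 113 and 116 CPM in those labelled IE-HuR-/-. H2-DMa departed from this proportion in T cells, with 269.8, 268 and 279% in the control libraries and 71.5, 78.8 and 68.7% in those labelled IE-HuR-/-. The H2-DMa level of T cells was 29.8, 30.1 and 31.6 CPM in the control libraries and 33.9, 39.6 and 35.4 CPM in those labelled IE-HuR-/-. In erythroid cells it was between 0.929 and 2.25 CPM in the control libraries and between 3.88 and 6.92 CPM in the others. Ciita in T cells was between 2.76 and 4.77 CPM in the control libraries and between 5.62 and 6.29 CPM in the others, with 51 and 106 UMIs behind it. Its percentage of the enterocyte level was between 79.7 and 175% in the control libraries and between 29.1 and 32.2% in the others, and that of H2-Eb1 was between 21.0 and 29.9% in the control libraries and between 11.2 and 12.7% in the others.

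**Figure D4:**
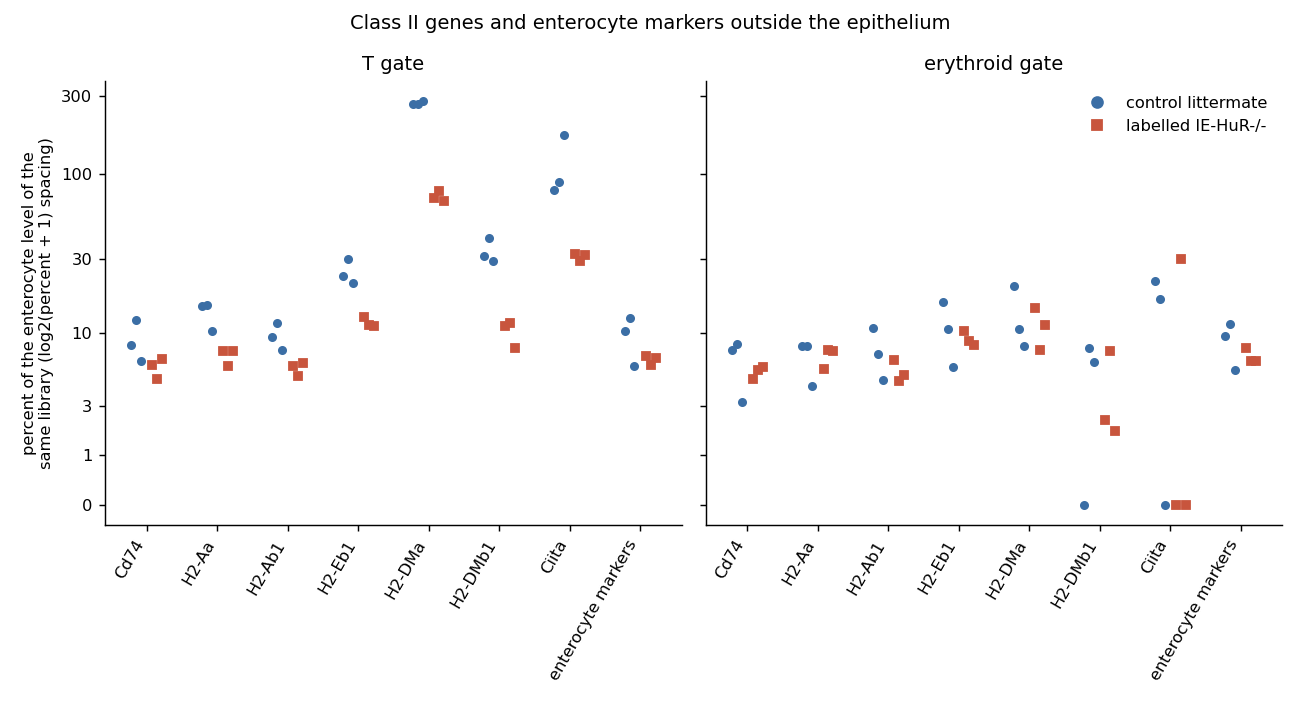
Level of each of the 7 genes and of 12 summed enterocyte markers in T cells (left) and erythroid cells (right), as a percentage of the enterocyte level of the same library, with 1 point per library on a log2(percent + 1) spacing. Cd74 and the enterocyte markers lie between 3 and 13% in both classes, while H2-DMa in T cells lies at 268% to 279% in the control libraries and at 68.7% to 78.8% in the others.

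Markers of antigen-presenting cells were close to 0 in enterocytes. The 15 macrophage/DC markers counted here summed to 3.16, 4.69 and 2.50 CPM in the control libraries and 4.64, 3.16 and 3.62 CPM in those labelled IE-HuR-/- in enterocytes, against a mean of 7976 CPM in their own gate, and 2 (control) and 1 (labelled IE-HuR-/-) of them were at 0. The 9 B cell markers summed to between 0.565 and 1.34 CPM in the control libraries and between 1.15 and 1.5 CPM in the others, with 0 of them at 0. C1qa of macrophages was between 0.0471 and 0.121 CPM in the control libraries and between 0.107 and 0.169 CPM in the others. Cd79a of B cells was between 0.0236 and 0.138 CPM in the control libraries and between 0.0938 and 0.188 CPM in the others. Ms4a1 of B cells was between 0.0189 and 0.0862 CPM in the control libraries and between 0.117 and 0.214 CPM in the others. Igkc of plasma cells was between 0.518 and 1.36 CPM in the control libraries and between 8.67 and 12.4 CPM in the others. The labels overlapped for C1qa, Cd79a, Lyz2 and Csf1r, and did not for Ms4a1 and Igkc. In 6 of 6 libraries the enterocyte level of Cd74 was at least 2.34% of the macrophage/DC level. C1qa was at most 0.169 CPM in enterocytes, and its mean in the macrophage/DC gate was 1519 CPM. The part of RNA from antigen-presenting cells in the enterocyte levels was not tested. Plasma cell markers (5 genes) summed to between 0.777 and 2.10 CPM in the control libraries and between 14.6 and 22.4 CPM in the others, and T cell markers (15 genes) to between 31.6 and 57.7 CPM in the control libraries and between 61.0 and 69.7 CPM in the others. The plasma and T cell lists were higher under the label IE-HuR-/- in 3 of 3 libraries, and their part in the class II levels was not tested. Among epithelial cells without a UMI of any non-epithelial marker, the summed level of the 7 genes in enterocytes had a log2 ratio of 2.47, against 2.56 over all enterocytes.

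Enterocytes were then set beside the antigen-presenting cells of the same library. As a percentage of the macrophage/DC level, their Cd74 level was 2.34, 3.87 and 3.52% in the control libraries and 14.2, 19.0 and 22.1% in those labelled IE-HuR-/-. For H2-DMb1 this percentage was between 4.38 and 7.78% in the control libraries and between 29.2 and 45.6% in the others. As a percentage of the B cell level, H2-DMb1 was between 13.5 and 30.1% in the control libraries and between 131 and 213% in the others. In this gene, enterocytes labelled IE-HuR-/- were thus above B cells. The B cell level of H2-DMb1 rests on 56 UMIs, beside 228 of H2-DMb2, which held most DM beta counts there. H2-DMb2 in enterocytes was at most 0.0471% of its B cell level, so the comparison does not cover both DM beta genes. Ciita was between 0.984 and 1.85% in the control libraries and between 5.64 and 8.0% in the others on that measure. The 9 classes with at least 10 cells in every library were put in order for each gene by the mean log2(CPM + 1) over the 6 libraries, and the 56 pairs of neighbours were compared by two-sided exact permutation tests over sign flips within libraries, of which the smallest possible p is 0.03125. No pair passed after adjustment over the 56 pairs (smallest adjusted p = 0.0875), and an unadjusted p of 0.03125 was reached by 20 pairs. The neighbours were set by the same values that were compared, and any pair could pass only if most pairs reached the smallest possible p. These tests therefore cannot decide the order, which is given as a description. Macrophage/DC stood first and B cells next for 6 genes, and for Ciita B cells stood above macrophage/DC in 6 of 6 libraries. For Cd74, H2-Aa, H2-Ab1 and H2-Eb1 enterocytes came next, below B cells in 6 of 6 libraries. Goblet and tuft cells were neighbours for 6 genes, with tuft cells above for Cd74, H2-Aa, H2-Eb1 and H2-DMa and goblet cells above for H2-Ab1 and H2-DMb1. The difference was 0.09 ± 0.33 for Cd74 on the log2 scale (SD, n = 6 libraries, exact p = 0.5) and 0.51 ± 0.46 for H2-DMa, the same way in 5 of 6 libraries (exact p = 0.09375, adjusted p = 0.175). Progenitors and goblet cells differed in Cd74 by 0.09 ± 0.51 (exact p = 0.719). For H2-DMa the mean of T cells over the 6 libraries stood above that of enterocytes (exact p = 0.25). T cells were above in the 3 control libraries and below in the 3 labelled IE-HuR-/-, so this order holds under the control label only.

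Of the 38 other genes listed for the class II pathway, 34 were in the tables and 24 passed the filter in enterocytes, of which 10 were called higher, 7 lower and 7 neither. For all genes tested in enterocytes the shares were 30.5% higher and 31.0% lower, and the counts are to be read against these. The larger rises were those of Cd274 and of 3 genes listed for interferon-gamma signalling. Cd274, the ligand PD-L1, was at 4.94, 3.93 and 2.94 CPM in the control libraries and 15.5, 12.9 and 15.3 CPM in those labelled IE-HuR-/- (log2 fold change 2.07, SE 0.166, edgeR adjusted p = 4.42e-05). Socs1, an inhibitor of cytokine signalling, was at 7.36, 7.24 and 6.34 CPM in the control libraries and 9.97, 10.7 and 11.6 CPM in those labelled IE-HuR-/- (log2 fold change 0.82, SE 0.0754, edgeR adjusted p = 8.22e-11). Irf1, a transcription factor that acts on Ciita, was at 134, 126 and 136 CPM in the control libraries and 188, 177 and 184 CPM in those labelled IE-HuR-/- (log2 fold change 0.67, SE 0.0403, edgeR adjusted p = 3.43e-15). Ifngr1, a chain of the interferon-gamma receptor, was at 117, 116 and 118 CPM in the control libraries and 168, 165 and 166 CPM in those labelled IE-HuR-/- (log2 fold change 0.71, SE 0.0380, edgeR adjusted p = 2.3e-16). In these 4 genes the 3 libraries of one label lay above the 3 of the other. Ifngr2, another chain of the receptor, named here after its value was seen, went the other way. It was called lower in enterocytes (log2 fold change -0.12, SE 0.0392, edgeR adjusted p = 0.00814) and in all epithelial cells (log2 fold change -0.18, SE 0.0381, edgeR adjusted p = 0.000939). Of the 8 genes of this role tested in enterocytes, 6 were called higher and 1 lower.

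Of the 7 genes of the promoter complex, 2 were called higher and 2 lower in enterocytes. Of all 12283 genes tested there, 30.5% were called higher and 31.0% lower, so these counts are near the shares over all genes. Nfya, a subunit of NF-Y, which binds the Y box, fell from 12.7 ± 0.350 CPM (SD, n = 3) to 6.98 ± 0.213 CPM (SD, n = 3; log2 fold change -0.66, SE 0.0677, edgeR adjusted p = 7.65e-10). Rfx5, a subunit of the factor on the X box, was lower, between 2.05 and 2.48 CPM in the control libraries and between 1.53 and 1.62 CPM in the others (log2 fold change -0.35, SE 0.141, edgeR adjusted p = 0.0314), and Rfxank was higher (log2 fold change 0.18, SE 0.0552, edgeR adjusted p = 0.00577). The call of Rfx5 was lost without any 1 library other than control replicate 3 (adjusted p between 0.0563 and 0.103), and that of Rfxank without replicate 2 labelled IE-HuR-/- (adjusted p = 0.0541). Among the endosomal enzymes, Ctsl, a protease that trims the invariant chain, was lower, between 33.1 and 34.9 CPM in the control libraries and between 19.3 and 21.8 CPM in the others (log2 fold change -0.53, SE 0.0515, edgeR adjusted p = 2.54e-10). Ifi30, which reduces disulfide bonds of antigens, was lower, between 131 and 139.9 CPM in the control libraries and between 94.1 and 96.2 CPM in the others (log2 fold change -0.31, SE 0.0400, edgeR adjusted p = 8.42e-08). Lgmn, an asparaginyl endopeptidase, was higher (log2 fold change 0.15, SE 0.0530, edgeR adjusted p = 0.0136), a call lost without control replicate 2 (adjusted p = 0.0931) or replicate 1 labelled IE-HuR-/- (adjusted p = 0.0803), while Ctss, Ctsb and Ctsd were not called. March8, a ubiquitin ligase of class II molecules, was lower (log2 fold change -0.11, SE 0.0403, edgeR adjusted p = 0.02), a call lost without replicate 1 (adjusted p = 0.0539) or replicate 3 (adjusted p = 0.103) labelled IE-HuR-/-. Icosl, a co-stimulatory ligand, was lower (log2 fold change -0.36, SE 0.128, edgeR adjusted p = 0.0172), a call lost without replicate 1 labelled IE-HuR-/- (adjusted p = 0.0736). Without replicate 1 labelled IE-HuR-/-, 4 pathway genes in place of 7 were called lower.

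Several of these calls changed with the scaling and with the gate. TMM scaling moves the median log2 fold change of all genes by 0.20 in enterocytes, and without it 22.6% in place of 49.6% of calls were higher. In a stricter gate, which also leaves out cells with a non-epithelial marker UMI, 23 were tested, of which 4 were called higher and 3 lower. Calls over all genes were also fewer there, with 1783 higher and 1604 lower of 9117, against 3746 and 3803 of 12283. Of the genes named above, Ctsl (log2 fold change -0.27, adjusted p = 0.0786), Rfx5 (-0.94, adjusted p = 0.0681), Rfxank (0.03, adjusted p = 0.872), Lgmn (0.12, adjusted p = 0.51) and March8 (-0.13, adjusted p = 0.24) were not called there, and Icosl was not tested. In cells without a UMI of a non-epithelial marker, these 5 and Icosl (log2 fold change -0.18, adjusted p = 0.759) were not called. Among enterocytes with at least 5000 UMIs, between 284 and 385 cells per library lacked such a UMI, of between 1584 and 2920 in all. The part of this loss of cells in the lost calls was not tested. By DESeq2, Rfx5 (adjusted p = 0.139), Icosl (adjusted p = 0.092) and March8 (adjusted p = 0.0525) were not called, nor was Icosl by edgeR after a filter of 500 genes and 25% mitochondrial UMIs (adjusted p = 0.0906). Unscaled, 4 of the 10 rises and 7 of the 7 falls remained, and 5 of the rises turned in sign (Creb1, Irf2, Jak1, Lgmn and Rfxank; named here after their values were seen where the rule did not name them), of which Irf2 was then called lower (log2 fold change -0.10, adjusted p = 0.0418). The 4 that remained were Cd274, Socs1, Irf1 and Ifngr1. In all epithelial cells together, 6 pathway genes were called higher and 7 lower, where 24.0% and 27.8% of 13607 genes were. Nfyc, another NF-Y subunit, was lower there (log2 fold change -0.18, SE 0.0549, edgeR adjusted p = 0.0119), a call lost by DESeq2 (adjusted p = 0.0895), without control replicate 2 (adjusted p = 0.0703) or without replicate 2 labelled IE-HuR-/- (adjusted p = 0.0603). Without TMM the share of higher calls in these cells went from 46.3% to 23.6%, 4 of the 6 rises remained, and Jak2 and Lgmn turned in sign.

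In goblet cells, 6 of 23 pathway genes tested were called higher and 0 lower, where 14.5% of 8873 genes were called higher and 11.9% lower. Cd274 was between 2.17 and 2.74 CPM in the control libraries and between 13.7 and 28.7 CPM in the others (log2 fold change 3.13, SE 0.310, edgeR adjusted p = 1.43e-06). Socs1 (log2 fold change 1.52, SE 0.271, adjusted p = 0.000769) and Irf1 (log2 fold change 1.09, SE 0.112, adjusted p = 8.37e-07) were higher as well. By DESeq2 6 were called higher and 0 lower, and by edgeR 1 had an unadjusted p under 0.05 in the lower direction. In a stricter goblet gate 0 of the 6 were among the 337 genes tested. Without TMM, 5 of the 6 rises remained and 5 genes were called lower, while the share of higher calls over all genes went from 55.1% to 24.1%. In progenitors 0 of 15 pathway genes tested was called, where 0.245% of 4888 genes were called in either direction, and 0 had an unadjusted p under 0.05 or a DESeq2 call.

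**Figure D5:**
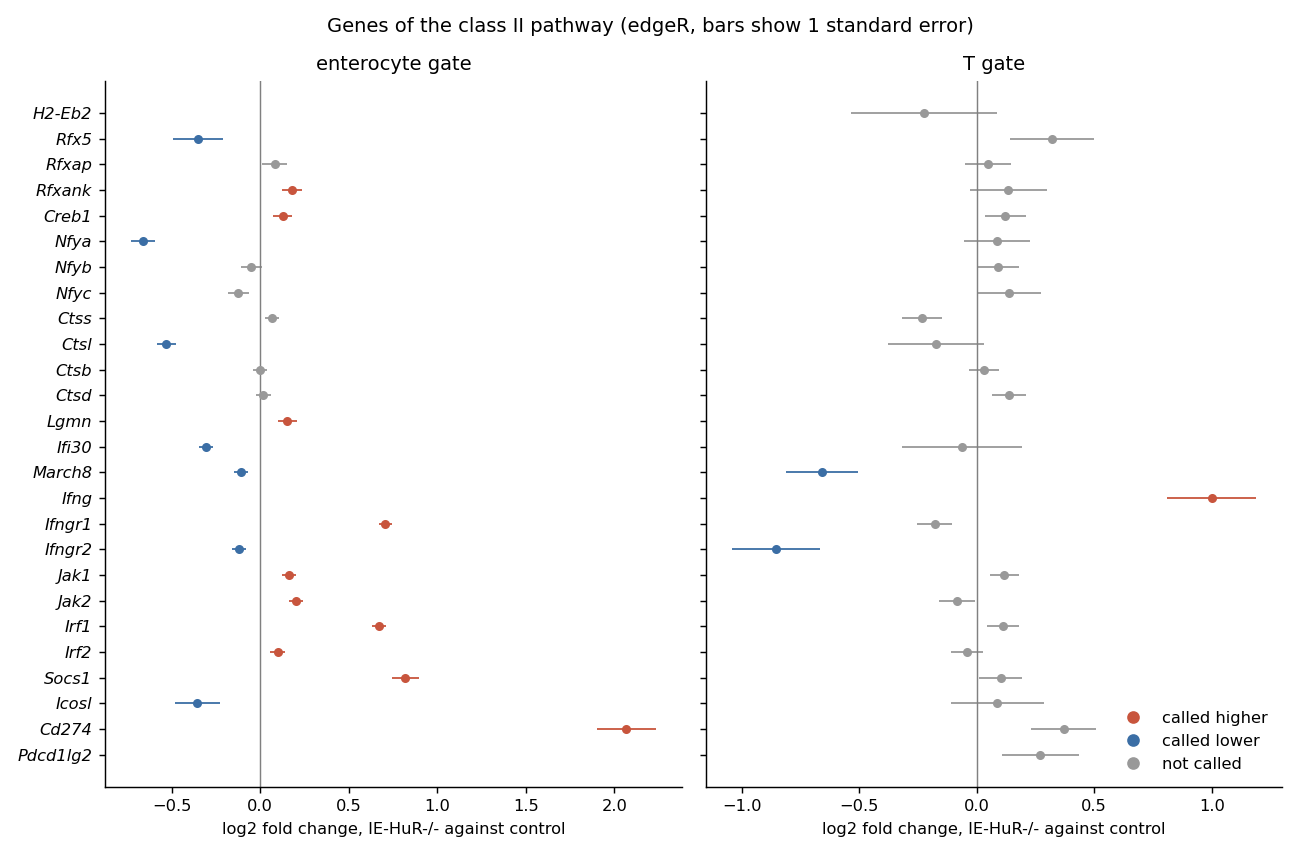
Log2 fold change of other class II pathway genes between the labels in enterocytes (left) and T cells (right), by edgeR with TMM scaling, where points are estimates over 3 against 3 libraries, bars 1 standard error and colours the calls at an adjusted p under 0.05. Cd274 lies at 2.07 in enterocytes and Ifng at 1.00 in T cells; genes without a point did not pass the filter on low counts in that class.

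Ifng, the gene of interferon-gamma, was measured in T cells, the class with the most Ifng UMIs. It was at 6.63, 6.20 and 6.78 CPM in the control libraries and 12.6, 11.5 and 15.9 CPM in those labelled IE-HuR-/-, from 96 and 241 UMIs (log2 fold change 1.00, SE 0.190, edgeR adjusted p = 0.00277). The 3 libraries labelled IE-HuR-/- lay above the 3 control libraries. In a stricter T cell gate of at least 8 marker UMIs and no UMI of B cell or macrophage markers, the log2 fold change was 0.47 and the adjusted p 0.660. Enterocytes had 2 Ifng UMIs in all. Ifngr2 (log2 fold change -0.85, SE 0.187, adjusted p = 0.0112) and March8 (log2 fold change -0.66, SE 0.154, adjusted p = 0.0128) were lower. In all, 4 of 26 pathway genes were called in T cells, 2 higher and 2 lower. Over all 11467 genes tested there, 3.00% were called higher and 2.87% lower. The call of Ifngr2 was lost without any 1 library other than control replicate 3 (adjusted p between 0.0526 and 0.0929), and that of March8 without control replicate 2 (adjusted p = 0.0827) or replicate 1 (adjusted p = 0.0641) or 2 (adjusted p = 0.0874) labelled IE-HuR-/-. March8 was also not called by DESeq2 (adjusted p = 0.0533) or in the stricter gate (log2 fold change -0.84, adjusted p = 0.124). In B cells 3 of 15 tested pathway genes were called lower and 0 higher by edgeR (5 and 0 at an unadjusted p under 0.05, 1 and 0 by DESeq2). Of all 1872 genes tested in B cells, 10.7% were called lower and 10.0% higher. The 3 called pathway genes, named after their values were seen, were Icosl, March1 and Ctss. Without control replicate 3 or replicate 3 labelled IE-HuR-/-, Icosl (adjusted p = 0.33 and 0.0909) and March1 (adjusted p = 0.114 and 0.112) were not called. Without the filter on low counts 0 of the 3 stayed called (adjusted p between 0.101 and 0.237). In a stricter gate Ctss was at a log2 fold change of 0.17 (adjusted p = 0.972), and the other two were not tested. In macrophage/DC cells 0 of 19 pathway genes tested were called by edgeR or DESeq2, and 1 had an unadjusted p under 0.05. Calls by edgeR were rare in this class, at 0.211% of 3318 genes tested in either direction.

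Genes that vary like the 7 genes across cell classes were sought by the Pearson correlation of log2(CPM + 10) with their summed level, as a description. Over 9 classes and 6 libraries (54 points, which share libraries, 10280 genes of at least 5 CPM on average) the closest genes were Ctsh (r = 0.820), Unc93b1 (r = 0.819), Ctss (r = 0.810), Ifi30 (r = 0.805) and Lyn (r = 0.803). All 5 were higher in macrophage/DC than in enterocytes in 6 of 6 libraries. Ctss, a protease that cleaves the invariant chain, was between 933 and 1269 CPM in the control libraries and between 949 and 1765 CPM in the others in macrophage/DC cells. In enterocytes it was between 175 and 182 CPM in the control libraries and between 157 and 167 CPM in the others. Over the 5 epithelial classes alone (30 points, 9529 genes) another group came first, namely Acta1 (r = 0.863), Duoxa2 (r = 0.854), Duox2 (r = 0.841), 3300005D01Rik (r = 0.835) and Actg1 (r = 0.784). Acta1, an actin gene of skeletal muscle, was at 23.4, 21.7 and 16.6 CPM in the control libraries and 1346, 1363 and 1319 CPM in those labelled IE-HuR-/- in enterocytes. Duoxa2, which matures the oxidase Duox2, was at 59.8, 66.2 and 61.5 CPM in the control libraries and 392, 392 and 378 CPM in those labelled IE-HuR-/-. These points hold both labels, and the separation of the labels is part of each correlation.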

How the data were processed

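Raw UMI counts per gene and barcode, 1 matrix per mouse, were used as deposited by the authors, whose processing notes name Cell Ranger, Seurat and mm10. Barcodes with at least 200 genes were gated by marker UMIs, cells with markers of several lineages were set aside and no doublet caller was run. UMIs were summed per library and class, and CPM computed on the class total. Label contrasts were fitted over all genes with edgeR 4.0.16 (R 4.3.3) as a quasi-likelihood test with TMM scaling and filterByExpr (minimum count 10, total 15), with Benjamini-Hochberg adjustment over all genes tested and calls at an adjusted p under 0.05, and repeated with DESeq2 1.42.0. The edgeR script was tested on simulated data. Classes with under 10 cells in any library were not tested.

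The members, lists and rules were chosen with earlier results of these data known. Named genes were the 7 members, Elavl1, H2-Oa and H2-Ob, and in all epithelial cells, enterocytes and T cells at most the 3 called genes per role of the pathway list with the larger absolute change, plus the 5 genes most like the members over all and over epithelial classes. Of 38 listed pathway genes, H2-Ea, H2-Ea-ps, Marchf1 and Marchf8 had no matching symbol, and 1 gene of the list is counted but not reported here. Each library is 1 mouse, so p-values cover the spread between mice, and replicate libraries differed beyond sampling noise (chi-square per degree of freedom 11.7 to 33.6). Library totals were 59518012 to 91818560 UMIs. Intervals from UMIs cover counting error only. Alternatives were other cell filters, gates, scalings, tools, the replicate block and leaving out each library. Shared replicate numbers did not pair the libraries (correlation of deviations 0.0115, -0.0470 and 0.0496).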

Additional observations from a re-analysis of the deposited data

How the results depend on the processing

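The label ratio of the summed level kept its direction in every setting run. The genes were chosen on this contrast, so the kept direction is a description and lends it no support. On the log2 scale it was 2.51 in all epithelial cells, against 2.44 in a stricter gate, 2.44 in cells without a non-epithelial marker UMI, 2.40 as a mean over cells, 2.66 with TMM-scaled library sizes and 2.48 to 2.53 with 1 library left out. In enterocytes it was 2.56, against 2.51 after a filter of 500 genes and 25% mitochondrial UMIs, 2.48 in a stricter gate, 2.47 without non-epithelial marker UMIs, 2.46 as a mean over cells, 2.76 with TMM and 2.53 to 2.59 with 1 library left out. Goblet cells, at 2.01, ranged from 1.81 as a mean over cells to 2.20 with TMM, and from 1.90 to 2.15 with 1 library left out. Progenitors, at 2.04, rose to 2.79 in a stricter gate and 2.69 without non-epithelial marker UMIs, and ranged from 1.73 to 2.25 with 1 library left out.

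Pathway genes called in enterocytes were 10 higher (4 without TMM, 4 in a stricter gate, 5 without non-epithelial marker UMIs, 7 to 10 with 1 library left out) and 7 lower (4 with DESeq2, 14 without TMM, 3 in a stricter gate, 4 without non-epithelial marker UMIs, 4 to 7 with 1 library left out, the lowest without IE-HuR-/- replicate 1). In all epithelial cells 7 were lower (12 without TMM, 5 to 7 with 1 library left out) and 6 higher (5 to 7). In goblet cells, where the alternatives were chosen after seeing the data, 6 were higher (5 to 6 with 1 library left out) and 0 lower (5 without TMM), the fit without non-epithelial marker UMIs was not run, and a stricter gate tested 0 of the 23 genes and gave no value. Of the 7 members in B cells, 3 were lower (1 without TMM, 1 without the filter on low counts, 0 of 5 tested in a stricter gate, 1 to 3 with 1 library left out). In T cells 5 were higher (3 to 6 with 1 library left out). The fold of Ifng in T cells, 1.00 on the log2 scale, was 0.47 in a stricter gate (adjusted p = 0.660) and 0.85 to 1.09 with 1 library left out. The cause was not tested. Of 56 neighbour pairs in the class order, 50 kept their order in the control libraries alone and 48 in those labelled IE-HuR-/-.

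With the replicate block, 4 members were called higher in T cells, Cd74 not among them (adjusted p = 0.222), and Ifng stood at 0.98 (adjusted p = 0.00993). The numbers are only names shared by libraries. Counts of Ciita, with 4 to 13 control UMIs in goblet, tuft, enteroendocrine and progenitor cells, limit its ratios there.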

Other observations

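Fibroblasts, of which 82 were gated with as few as 5 in a library, also had higher Cd74 under the label IE-HuR-/-. Its level was 8.59, 21.7 and 39.6 CPM in the control libraries and 631, 962 and 1319.8 CPM in those labelled IE-HuR-/-, from 11 and 207 UMIs. The groups did not overlap, and no test was made in this class. The fibroblast gate, too, required a share of epithelial marker UMIs under 0.005. As a percentage of the enterocyte level of the same library, fibroblast Cd74 was 2.66, 6.07 and 11.3% in the control libraries and 30.7, 47.3 and 66.2% in those labelled IE-HuR-/-. The 12 enterocyte markers stood in these cells at 6.48, 6.32 and 5.26% in the control libraries and 2.81, 4.56 and 8.63% in those labelled IE-HuR-/-. The other class II genes did not all follow Cd74 on this measure. H2-Aa was higher, between 3.73 and 9.07% in the control libraries and between 12.8 and 30.1% in the others, while H2-Ab1 and H2-Eb1 overlapped. H2-DMb1 was lower, at 165, 87.1 and 336% in the control libraries and 15.8, 0 and 54.5% in those labelled IE-HuR-/-. H2-DMa was at 0, 0 and 0% in the control libraries and 0, 0 and 18.8% in the others. Ciita had 2 and 1 UMIs in fibroblasts. Plasma cells, with 1 to 16 per library, had Cd74 between 3287 and 14333 CPM in the control libraries and between 2755 and 4325 CPM in the others.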
